A study of Mus musculus with 80 samples.

Results

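Transcripts of cell-surface receptors for cardiovascular hormones and autonomic transmitters were followed in the heart across sleep and sleep deprivation. The group was fixed by name, with earlier results of these data known, and held 9 genes: the angiotensin II receptor Agtr1a, the apelin receptor Aplnr, the endothelin receptors Ednra and Ednrb, the adrenergic receptors Adrb1, Adra1a and Adra1b, the muscarinic acetylcholine receptor Chrm2 and the natriuretic peptide receptor Npr3. Of these, 6 had a probe set under their own symbol among the 35556 probe sets and 18820 named genes of the array, each with 1 probe set. Ednra, Adrb1 and Adra1a were not analysed here.

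Hearts came from 80 adult male C57BL/6 J mice, with 1 Affymetrix Mouse Gene 1.0 ST array per animal. The sleep-deprived animals were handled gently to keep them awake, starting when the lights came on, and were killed after 3, 6, 9 or 12 h (n = 8, 9, 9 and 8), and the spontaneously sleeping animals were killed undisturbed at the same times (n = 9 each). The 10 baseline animals were killed undisturbed at lights-on. Per the study's methods, all groups had been fed in the dark phase alone before the experiment, and sleep was judged from locomotor inactivity, so that sleep and physical rest are not distinguished.

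Values were log2 intensities, so a difference of 1 is a doubling, and errors are the standard deviation (SD) of animals or the standard error (SE) of a fitted difference. A difference was called when its adjusted p in limma was under the false discovery rate of 1% over all probe sets. Between arrays the correlation ranged from 0.978 to 0.995, and 5 arrays stood apart by a low mean correlation with the rest (replicate 5 at 3 h, replicate 5 at 6 h and replicate 3 at 12 h of sleep deprivation, and replicate 1 at 3 h and replicate 1 at 9 h of sleep). Numbers in the sample titles fell into 4 runs, whose meaning the labels do not give: runs 1 and 2 held the 9 and 12 h animals, and runs 3 and 4 the 3 and 6 h animals, with baseline in run 3. Differences of the 9 and 12 h groups from baseline, and slopes over the hours, therefore cannot be told apart from differences between runs, whereas every comparison of sleep-deprived with sleeping animals was possible within runs.

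These receptors are the points at which circulating hormones and autonomic nerves reach heart muscle and its vessels. Angiotensin II acting on its type 1 receptor and noradrenaline acting on alpha-1 receptors both signal through Gq and phospholipase C, constrict vessels and favour growth of heart muscle. The apelin receptor signals mainly through Gi, dilates vessels and counters several angiotensin effects, and the endothelin B receptor of endothelial cells clears endothelin and releases nitric oxide. Chrm2 carries the vagal slowing of the heart, and Npr3 removes natriuretic peptides from the circulation. In whole hearts, fewer cells of a type and less RNA per cell cannot be told apart.

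Upstream sequence is shown for the members with a called difference between states that the RefSeq promoter table (GRCm38.p6) held. Entries matched 4 of the 6 measured members, with 5 windows in all, since Adra1b has 2 annotated starts. Each line gives the 250 bases before the annotated start, 5′ to 3′ on the gene's strand, and capitals mark GGGCGG (the GC box) or TGACG (the half-site of the cAMP response element) on either strand.
Adra1b, chr11:43901238-43901487, minus strand: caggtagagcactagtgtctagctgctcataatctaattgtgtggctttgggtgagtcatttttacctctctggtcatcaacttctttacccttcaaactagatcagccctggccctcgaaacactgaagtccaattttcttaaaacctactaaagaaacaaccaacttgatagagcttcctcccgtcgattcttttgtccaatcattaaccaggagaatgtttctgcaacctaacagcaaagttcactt
Adra1b, chr11:43836490-43836739, minus strand: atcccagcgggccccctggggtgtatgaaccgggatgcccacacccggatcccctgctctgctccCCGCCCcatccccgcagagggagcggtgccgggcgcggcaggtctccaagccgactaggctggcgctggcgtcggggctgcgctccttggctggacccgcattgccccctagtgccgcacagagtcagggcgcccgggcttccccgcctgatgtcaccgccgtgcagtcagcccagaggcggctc
Ednrb, chr14:103843702-103843951, minus strand: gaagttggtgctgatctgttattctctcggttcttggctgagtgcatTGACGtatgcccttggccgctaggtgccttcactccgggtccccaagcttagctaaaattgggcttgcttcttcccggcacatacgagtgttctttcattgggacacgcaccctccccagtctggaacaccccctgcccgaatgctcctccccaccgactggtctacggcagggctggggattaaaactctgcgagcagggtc
Chrm2, chr6:36387834-36388083, plus strand: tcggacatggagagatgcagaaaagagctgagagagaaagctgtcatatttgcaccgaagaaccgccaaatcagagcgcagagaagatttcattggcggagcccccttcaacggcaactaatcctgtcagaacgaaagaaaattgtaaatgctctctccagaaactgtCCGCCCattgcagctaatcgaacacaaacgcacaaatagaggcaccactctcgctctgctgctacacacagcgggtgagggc
The windows differed in base composition. The Adra1b start at the second position had 72.8% G and C and 1 GC box, whereas the first had 41.6% and no marked motif, against a median of 52.4% over all promoters. Ednrb had 56.8% G and C with 1 TGACG, and Chrm2 held 1 GC box. Over all 32851 promoter windows, 32.7% held a GC box, 17.8% held TGACG and 12.4% held the TATA box TATAAA, which none of these windows held. In the full windows of 300 bases, none of the 5 entries of measured members held the E-box CACGTG (in 7.15% of all promoters), the full cAMP response element TGACGTCA, which includes the half-site (1.79%), the D-box TTATGTAA (0.938%) or the glucocorticoid response element (0.00913%). The GC box, the half-site and the TATA box were added after the sequences had been searched for the other motifs.

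The question first asked was which receptors differed between the 34 sleep-deprived and the 36 sleeping animals over all times. Agtr1a, Adra1b and Chrm2 were lower in sleep-deprived hearts and Ednrb was higher, so that 4 of 6 receptors (66.7%) were called, against 8.38% of all probe sets. The background was 14.8% with probe sets under the 40th percentile of intensity left out and 12.6% with 1 probe set per symbol, with 4 receptors called in each. The members were chosen with earlier results of these data known, so these shares are given as a description. By direction, 3 were lower, against 4.94% of all probe sets, and 1 was higher, against 3.43%. When arrays were centred on their own medians, the calls over all probe sets were 1774 higher and 1182 lower, against 1221 and 1758 without centring, and Chrm2 lost its call. The receptors therefore did not move in a single direction, as the plot of differences by time shows.

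**Figure D1:**
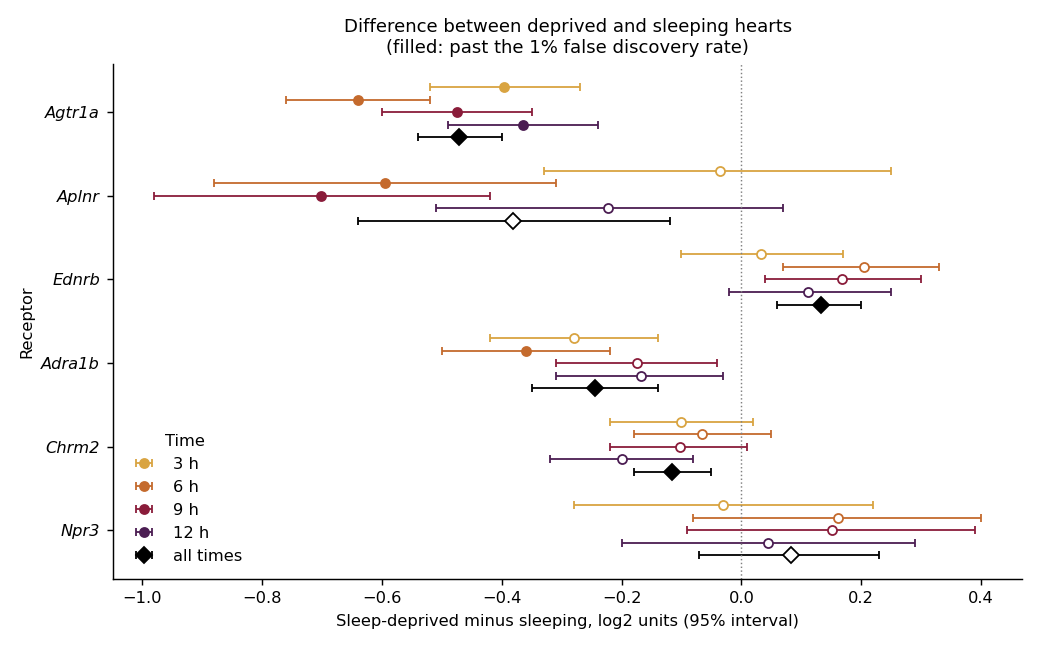
Difference between sleep-deprived and sleeping hearts for the 6 measured receptors, in log2 units with 95% intervals, at each time and over all times (filled symbols, past the 1% false discovery rate). Agtr1a lies below 0 at every time, Aplnr is furthest below 0 at 6 and 9 h, Ednrb lies above 0, and the interval of Npr3 over all times runs from -0.07 to 0.23.

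Agtr1a was the receptor with the clearest separation. After 3 h, sleep-deprived animals ran from 9.24 to 9.67 with a median of 9.34, and sleeping animals from 9.71 to 9.89 with a median of 9.81. After 6 h the sleep-deprived animals ran from 9.15 to 9.47 (median 9.26), and the sleeping animals from 9.77 to 10.07 (median 9.92). At both times every sleep-deprived heart lay below every sleeping heart. At 9 h the sleep-deprived range of 9.11 to 9.54 (median 9.41) overlapped the sleeping range of 9.32 to 10 (median 9.93) through 1 sleeping animal at 9.32, one of the 5 arrays of low correlation, the next sleeping value being 9.80. At 12 h, 7 of the 8 sleep-deprived animals (9.27 to 9.57, median 9.40) lay below all sleeping animals (9.51 to 9.99, median 9.77). Each of the 34 sleep-deprived hearts had less than the mean of the sleeping hearts of its own time.

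The mean difference for Agtr1a was -0.40 ± 0.063 (SE) at 3 h, -0.64 ± 0.061 at 6 h, -0.47 ± 0.061 at 9 h and -0.36 ± 0.063 at 12 h, each called (adjusted p = 1.27e-05, 7.57e-12, 6.27e-08 and 4.74e-05, limma). The background of calls at the single times was 1.59%, 2.58%, 3.31% and 3.13% of probe sets. At 6 h the sleep-deprived level was 0.64 times the sleeping level. Within the 4 runs the difference over both times of the run was -0.37, -0.48, -0.52 and -0.52, called in each. The difference over all times kept its call under all 13 alternatives, with a range from -0.51 to -0.41.

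The sleep-deprived hearts also lay below baseline for Agtr1a, with differences of -0.30, -0.43, -0.32 and -0.31 at 3, 6, 9 and 12 h (adjusted p = 8.33e-04, 1.08e-07, 4.11e-05 and 7.04e-05, limma). Baseline hearts ran from 9.52 to 9.81 with a median of 9.74. Sleeping hearts differed from baseline by 0.10, 0.21, 0.15 and 0.05 at 3, 6, 9 and 12 h, none of them called (adjusted p = 0.498, 0.0299, 0.0693 and 0.607). Without the 5 arrays of low correlation, however, sleeping hearts were called above baseline at 6 h (0.21, adjusted p = 0.00445) and 9 h (0.22, adjusted p = 0.00106), and within the run of baseline the 6 h difference was 0.15 and not called (adjusted p = 0.218). In the run that holds baseline, the differences of sleep-deprived hearts were -0.32 at 3 h and -0.45 at 6 h, both called. The order of group means was the 4 sleeping groups, then baseline at 9.71 ± 0.09 (SD), then the 4 sleep-deprived groups, and the gap below baseline (0.302) was the 1 step that exceeded the larger SD of its neighbours.

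**Figure D2:**
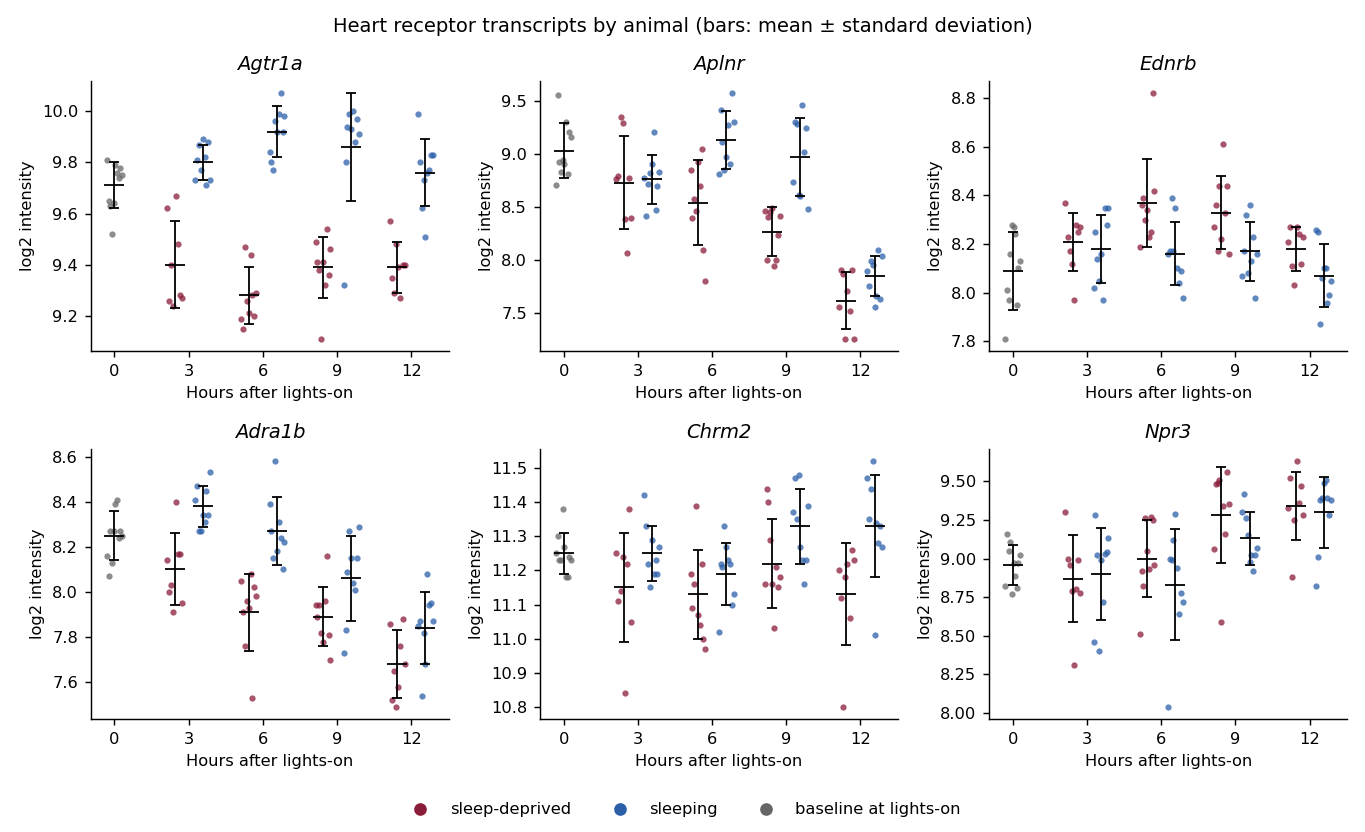
log2 intensity of each receptor by hours after lights-on, 1 point per animal, with sleep-deprived animals left of sleeping animals at each time and baseline at 0 h (bars, mean ± standard deviation). Agtr1a is lower in sleep-deprived hearts from 3 h on, with overlap at 9 and 12 h, and Aplnr and Adra1b are lowest at 12 h in both states.

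The alpha-1B adrenergic receptor Adra1b, the alpha-1 subtype measured here, was lower in sleep-deprived hearts, with a difference of -0.24 ± 0.054 (SE) over all times (adjusted p = 6.26e-04, limma), and 30 of 34 sleep-deprived hearts were under the sleeping mean of their time. At 3 h the sleep-deprived animals ran from 7.91 to 8.40 (median 8.09), and the sleeping animals from 8.27 to 8.53 (median 8.34), with 7 of 8 sleep-deprived hearts below all sleeping ones. The 6 h groups did not overlap: 7.53 to 8.08 (median 7.96) in sleep-deprived and 8.10 to 8.58 (median 8.24) in sleeping hearts. The mean difference was smaller at 9 and 12 h, which lie in other runs, but its change with time was not called (interaction adjusted p = 0.451, limma). At 9 h the sleep-deprived range of 7.70 to 8.16 (median 7.89) overlapped the sleeping range of 7.73 to 8.29 (median 8.09), and at 12 h the ranges were 7.49 to 7.88 (median 7.66) in sleep-deprived and 7.54 to 8.08 (median 7.87) in sleeping hearts.

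At single times the Adra1b difference was -0.28, -0.36, -0.17 and -0.17 at 3, 6, 9 and 12 h, called at 6 h (adjusted p = 1.92e-04, and 0.0109, 0.109 and 0.145 at the other times, limma). Without the 6 h animals the difference over all times was -0.21 and no longer called (adjusted p = 0.0346). Within the 4 runs it was -0.14, -0.20, -0.36 and -0.28, called in run 3.

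Adra1b also had a called negative slope over the hours in both states, across times that lie in different runs. Its slope was -0.045 ± 0.0051 (SE) per h from baseline through 12 h of sleep deprivation (adjusted p = 2.71e-09) and -0.036 ± 0.0058 per h through 12 h of sleep (adjusted p = 3.27e-06, limma), or -0.54 and -0.43 over 12 h. Over sleep the slope without the 12 h animals was -0.021 and not called (adjusted p = 0.0597). From baseline, where the median was 8.26, the sleep-deprived groups differed by -0.33 at 6 h, -0.36 at 9 h and -0.57 at 12 h, and the sleeping group by -0.40 at 12 h, all called. Being lower in sleep-deprived animals and having a negative slope over sleep, Adra1b moved in opposite directions in the 2 steps that the study combined to define sleep-enhanced and sleep-repressed transcripts.

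The apelin receptor Aplnr had a difference between states in the middle of the day. At 3 h the sleep-deprived range of 8.07 to 9.35 (median 8.76) enclosed the sleeping range of 8.42 to 9.21 (median 8.77). At 6 h sleep-deprived hearts ran from 7.81 to 9.05 (median 8.58), and sleeping hearts from 8.81 to 9.57 (median 9.11), with 6 of 9 sleep-deprived values below all sleeping ones. At 9 h sleep-deprived hearts ran from 7.95 to 8.49 (median 8.41), and sleeping hearts from 8.48 to 9.46 (median 9.02), so that 8 of 9 lay below all sleeping hearts. At 12 h both states were low, with 7.26 to 7.91 (median 7.64) in sleep-deprived and 7.56 to 8.10 (median 7.90) in sleeping hearts.

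The Aplnr difference was called at 6 h (-0.59 ± 0.14 SE, adjusted p = 0.00387) and 9 h (-0.70 ± 0.14, adjusted p = 4.03e-04) but not at 3 h (-0.04, adjusted p = 0.936) or 12 h (-0.22, adjusted p = 0.415, limma). With the arrays of a single run, the 6 h difference was -0.39 in run 3 and -0.85 in run 4, and the 9 h difference was -0.55 in run 1 and -0.90 in run 2, none of them called. The 3 h difference was 0.317 in run 3 and -0.40 in run 4. Over all times the difference of -0.38 ± 0.13 did not pass (adjusted p = 0.0349). With time of day as a factor it was -0.40 ± 0.078 (adjusted p = 8.34e-05), in a fit that called 10.4% of probe sets and 5 of the 6 receptors, and it also passed with the run as a factor, with array weights and without the 12 h animals.

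The step in Aplnr between 9 and 12 h could be compared inside the same runs. Sleeping hearts at 12 h differed from sleeping hearts at 9 h by -1.12 ± 0.14 (SE, adjusted p = 1.84e-08), that is, 0.46 times the 9 h level, and the ranges did not overlap. Sleep-deprived hearts at 12 h differed from those at 9 h by -0.65 ± 0.15 (adjusted p = 0.0136, not called, limma), again without overlap of the ranges. The comparison called 1.33% of all probe sets in sleeping and 0.2% in sleep-deprived hearts, and 1 of the 12 comparisons of receptors was called. Within runs 1 and 2 the sleeping difference was -1.07 and -1.19, called in both. Adra1b differed by -0.22 in sleeping and -0.21 in sleep-deprived hearts (adjusted p = 0.072 and 0.185).

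From baseline (8.71 to 9.55, median 8.93), Aplnr differed by -0.77 at 9 h and -1.41 at 12 h of sleep deprivation and by -1.19 at 12 h of sleep, all called, and by -0.49 at 6 h of sleep deprivation (adjusted p = 0.0121, not called). The slope was -0.108 ± 0.012 (SE) per h over sleep deprivation and -0.071 ± 0.015 per h over sleep (adjusted p = 5.86e-10 and 2.02e-04, limma). The slope over sleep rested on the 12 h animals, without which it was 0.005 (adjusted p = 0.867), whereas over sleep deprivation it was -0.083 without them (adjusted p = 2.17e-04).

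Ednrb was the receptor that was higher in sleep-deprived hearts, by 0.13 ± 0.035 (SE) over all times (adjusted p = 0.00382, limma), with 29 of 34 sleep-deprived animals above the sleeping mean of their time. The groups overlapped at all times. At 6 h sleep-deprived hearts ran from 8.19 to 8.82 (median 8.34), and sleeping hearts from 7.98 to 8.39 (median 8.16). At 9 h they ran from 8.16 to 8.61 (median 8.33) in sleep-deprived and from 7.98 to 8.36 (median 8.16) in sleeping hearts. All 9 sleep-deprived animals at 6 h and 8 of 9 at 9 h lay above the sleeping mean. The differences at 3, 6, 9 and 12 h were 0.03, 0.20, 0.17 and 0.11, none called alone (adjusted p = 0.868, 0.05, 0.103 and 0.366).

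From baseline (7.81 to 8.28, median 8.11), Ednrb was higher by 0.27 at 6 h and 0.24 at 9 h of sleep deprivation (adjusted p = 0.00192 and 0.00523, limma). In the run that holds baseline, the 6 h difference was 0.22 and not called (adjusted p = 0.0356). The call over all times was lost without the 6 h (adjusted p = 0.0561), 9 h (0.056) or 12 h animals (0.0159), with differences of 0.11, 0.12 and 0.14. Within the 4 runs the difference was 0.08, 0.22, 0.08 and 0.16, none called.

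Chrm2, the main muscarinic receptor of heart muscle, was lower in sleep-deprived hearts by a small margin. Over all times, sleep-deprived hearts ran from 10.80 to 11.44 (median 11.17), and sleeping hearts from 11.01 to 11.52 (median 11.27). The difference was -0.12 ± 0.032 (SE, adjusted p = 0.00647, limma), and 29 of 34 sleep-deprived hearts were under the sleeping mean of their time. It lost its call under 7 of the 13 alternatives, among them centring of the arrays (-0.09, adjusted p = 0.0308), array weights (-0.09, adjusted p = 0.0167), leaving out the 5 arrays of low correlation (-0.08, adjusted p = 0.0468) and leaving out the animals of any 1 time (adjusted p from 0.0138 to 0.103). At single times and from baseline no difference of Chrm2 was called, the largest between states being -0.20 at 12 h (adjusted p = 0.024). Within the 4 runs it was -0.18, -0.11, -0.06 and -0.11, none called.

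Npr3, the clearance receptor, did not pass between states. Sleep-deprived hearts ran from 8.31 to 9.63 (median 9.21), and sleeping hearts from 8.04 to 9.51 (median 9.03), and the difference was 0.08 with a 95% interval from -0.07 to 0.23 (adjusted p = 0.566, limma). The slope over the hours, which spans different runs, was 0.038 ± 0.0087 (SE) per h over sleep deprivation (adjusted p = 0.0011, called) and 0.029 ± 0.0089 over sleep (adjusted p = 0.0107, not called), or 0.46 and 0.35 over 12 h. At 12 h, Npr3 was above baseline by 0.38 in sleep-deprived and 0.34 in sleeping hearts (adjusted p = 0.02 and 0.0313). Without the 12 h animals the slope over sleep deprivation was 0.035 and not called (adjusted p = 0.0553). Between 9 and 12 h, inside the same runs, Npr3 differed by 0.06 in sleep-deprived and 0.17 in sleeping hearts, neither called (adjusted p = 0.912 and 0.618).

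Counts of receptors called from baseline are given beside the background, as a description. Of 48 differences from baseline (6 receptors in 8 groups), 13 were called. After 3, 6, 9 and 12 h of sleep deprivation, 1.54%, 4.44%, 6.61% and 9.75% of all probe sets were called, and 1, 3, 4 and 3 receptors. After the same hours of sleep, 0.16%, 1.54%, 8.43% and 11.8% of probe sets were called, and 0, 0, 0 and 2 receptors. Over the hours, 4 receptors had a called slope over sleep deprivation (Agtr1a, Aplnr, Adra1b and Npr3), against 10.2% of probe sets, and 2 over sleep (Aplnr and Adra1b), against 17.6%. The Agtr1a slope over sleep deprivation (-0.023 per h) was 0.003 without baseline (adjusted p = 0.872).

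No receptor was called for an interaction of state and time in limma, against 0.371% of probe sets, although 2 of 6 had an unadjusted p under 0.05, Aplnr (0.00451, adjusted p = 0.105) and Agtr1a (0.0121, adjusted p = 0.154). The count was also 0 with trended robust shrinkage. For the spread over baseline and the sleeping groups, none was called by Bartlett's and the Brown-Forsythe test together, against 0.458% of probe sets. Here 2 of 6 had a Bartlett p under 0.05 (Agtr1a, 0.0165, and Npr3, 0.0393) and 0 a Brown-Forsythe p under 0.05.

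The responses of the receptors were then set against each other within each array, which removes what moves all probe sets of an array alike. Of the 5 pairs planned, 4 held a receptor not measured here, so all 15 pairs of the 6 measured receptors were tested, by permutation of the labels within time (two-sided, 100000 resamples, Benjamini-Hochberg over the 15 pairs). In the planned pair, which opposes angiotensin and apelin receptors, the response of Agtr1a minus that of Aplnr was -0.08 ± 0.082 (SE), with a 95% interval from -0.24 to 0.08 (permutation adjusted p = 0.369), and 17 of 34 sleep-deprived animals lay on each side of the sleeping mean. A difference in response between these 2, averaged over the 4 times, was thus not detected, with that interval. At 3, 6, 9 and 12 h, Agtr1a differed between states by -0.40, -0.64, -0.47 and -0.36, and Aplnr by -0.04, -0.59, -0.70 and -0.22. Gaps of opposite sign thus entered the average, and the pair was not tested at single times. Agtr1a responded more negatively than Ednrb (-0.60), Npr3 (-0.55), Chrm2 (-0.35) and Adra1b (-0.22), each with a permutation p of 1e-05, the smallest these resamples can give (adjusted p = 2.14e-05). Ednrb and Adra1b, which moved in opposite directions, differed by 0.37 ± 0.046, with 33 of 34 sleep-deprived animals above the sleeping mean of their time. In all, 12 of 15 pairs had a permutation adjusted p under 0.05, and the other pairs without one were Aplnr and Adra1b (-0.14, interval -0.33 to 0.04) and Ednrb and Npr3 (0.05, interval -0.08 to 0.17). All pairs but the planned one were added after the data had been seen. They take the same arrays as the single-receptor differences above, so their count is no separate evidence.

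Correlations between receptors across animals were mixed in sign. After group means were removed, the correlation across the 80 arrays was highest for Agtr1a and Adra1b (0.42) and lowest for Aplnr and Adra1b (-0.35), as a description over arrays that share their normalisation. With group means kept, the genes whose pattern was most like that of Agtr1a were Pla2g4e (r = 0.871), Carns1 (0.845) and Herc3 (0.814), of Aplnr Rasgrp3 (0.867), Gask1b (0.854) and Sema6d (0.845), and of Adra1b Ston2 (0.85), Prox1 (0.847) and Gata4 (0.845). For Ednrb they were Sh3d19 (0.653), Baz1a (0.635) and Pdk4 (0.586), for Chrm2 Trip12 (0.777), Uxs1 (0.745) and Tmx4 (0.744), and for Npr3 Dkk3 (0.854), Psd3 (0.813) and Ptgfr (0.808). With group means removed, the correlation of Npr3 with Dkk3, Psd3 and Ptgfr was 0.85, 0.81 and 0.73. That of Agtr1a with Pla2g4e, Carns1 and Herc3 was 0.64, 0.48 and 0.56.

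Among ligands and the enzymes that process them, the angiotensin precursor was higher in sleep-deprived hearts, where its receptor was lower. Agt averaged 6.91 ± 0.21 in sleep-deprived and 6.56 ± 0.31 in sleeping hearts (SD, n = 34 and 36), a difference of 0.35 ± 0.062 (SE, adjusted p = 1.54e-05, limma), with 30 of 34 sleep-deprived animals above the sleeping mean of their time. It was called at 9 h (0.60) and 12 h (0.51) and not at 3 h (0.03) or 6 h (0.27). Ace, which makes angiotensin II, differed by 0.07 (adjusted p = 0.248). The proprotein convertase Furin (0.18) and the endothelin-converting enzyme Ece2 (0.13) were also higher. These made 3 higher and 0 lower of the 25 measured members of the list, or 12.0%. The lists took 1 probe set per symbol, for which the background was 12.6%, against 8.38% of all probe sets. The median of the list was 0.017 against -0.006 over all probe sets.

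The other ligands of these receptors did not pass between states. Apelin (Apln) differed by -0.07 (adjusted p = 0.641), and its receptor by -0.38, also not called (adjusted p = 0.0349, limma). At 3, 6, 9 and 12 h Apln differed by 0.20, -0.21, -0.22 and -0.06, none called. Endothelin-1 (Edn1) differed by -0.03 (adjusted p = 0.72) and endothelin-3 (Edn3) by 0.16 (adjusted p = 0.0342). The natriuretic peptides Nppa, Nppb and Nppc differed by 0.12, 0.20 and 0.02 (adjusted p = 0.2, 0.571 and 0.869), and the guanylyl cyclase receptors that bind them, Npr1 and Npr2, by 0.03 and -0.02 (adjusted p = 0.676 and 0.736). Adrb3 was not analysed here.

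**Figure D3:**
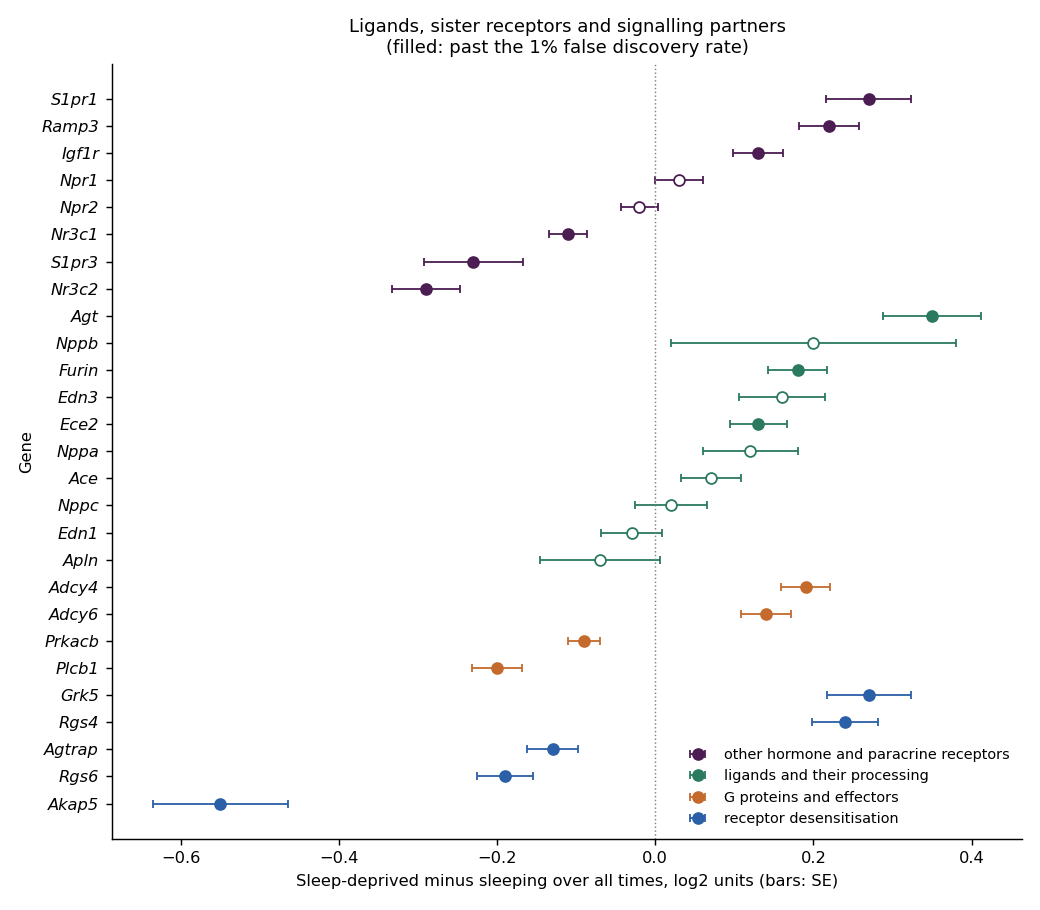
Difference between sleep-deprived and sleeping hearts over all times, in log2 units with standard errors, for ligands, sister receptors and signalling partners of the receptors (filled symbols, past the 1% false discovery rate). Agt lies at 0.35 and Akap5 at -0.55, while the natriuretic peptides and Npr1 and Npr2 have open symbols.

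Of the other adrenergic and muscarinic receptors, 5 of 10 were measured (Adra2c, Chrm1, Chrm3, Chrm4 and Chrm5) and 0 were called by limma, with 1 at an unadjusted p under 0.05 (Chrm3, -0.14, adjusted p = 0.0177) and 0 with trended robust shrinkage. Of 26 other hormone and paracrine receptors, 3 rose and 3 fell (23.1%, against 8.38% of all probe sets and 12.6% with 1 probe set per symbol). Their median was -0.012 against -0.006 over all probe sets. The sphingosine-1-phosphate receptors moved apart, with S1pr1 higher (0.27 ± 0.054 SE) and S1pr3 lower (-0.23 ± 0.063) in sleep-deprived hearts. The mineralocorticoid receptor Nr3c2 (-0.29 ± 0.043) and the glucocorticoid receptor Nr3c1 (-0.11 ± 0.024) fell, and the receptor-modifying protein Ramp3 (0.22 ± 0.038) and the growth factor receptor Igf1r (0.13 ± 0.032) rose.

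Of 34 measured G proteins and effectors, 2 rose and 2 fell (11.8%, median -0.02). The background was 8.38% of all probe sets and 12.6% with 1 probe set per symbol. The adenylyl cyclases Adcy4 (0.19 ± 0.031 SE) and Adcy6 (0.14 ± 0.032) were higher in sleep-deprived hearts. Phospholipase C beta 1 (Plcb1, -0.20 ± 0.032), an effector of Gq, and the catalytic subunit Prkacb of protein kinase A (-0.09 ± 0.020) were lower. The related Plcb3 (-0.04, adjusted p = 0.27) and Plcb4 (0.04, adjusted p = 0.692) were not called by limma. Of 16 measured genes of receptor desensitisation, 2 rose and 3 fell (31.2%, against the same backgrounds, median -0.016). The receptor kinase Grk5 (0.27 ± 0.053) and the regulator of G protein signalling Rgs4 (0.24 ± 0.042) were higher. Rgs6 (-0.19 ± 0.035), the angiotensin receptor-associated protein Agtrap (-0.13 ± 0.032) and the protein kinase A anchor Akap5 (-0.55 ± 0.085) were lower. Of the 18 genes named here as called, 9 kept the call under all 13 alternatives (Agt, Ramp3, Nr3c2, Adcy4, Plcb1, Grk5, Rgs4, Rgs6 and Akap5), and 9 lost it under at least 1, with adjusted p up to 0.115 (S1pr3, which lost it with centred arrays and without the 3, 6 or 9 h animals).

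Markers of heart cell types were measured beside the receptors. For ventricular muscle, in which Adra1b and Chrm2 are expressed, 7 of 8 listed markers were measured and 0 were called by limma (1 at an unadjusted p under 0.05, 0 with trended robust shrinkage), and the mean over the list ran from 12.71 to 12.85 in sleep-deprived and from 12.69 to 12.87 in sleeping hearts. Of 8 endothelial markers, Pecam1 (0.16) and Esam (0.21) were higher in sleep-deprived hearts and 6 were not called, with a list mean of 9.68 to 10.06 in sleep-deprived and 9.54 to 10.01 in sleeping hearts. Of 9 markers of smooth muscle cells and pericytes, Pdgfrb (-0.14), Kcnj8 (-0.12) and Abcc9 (-0.11) were lower and 6 were not called (33.3% called). Those not called were Cnn1 (0.35), Tagln (0.17), Acta2 (0.11), Rgs5 (0.05), Myh11 (0.0) and Cspg4 (-0.03), so the list was mixed in sign. The list mean was 9.14 to 9.71 in sleep-deprived and 9.04 to 9.60 in sleeping hearts, a mean difference of 0.03. Of 7 fibroblast markers Lum (-0.24) was lower. Of 5 macrophage markers Cd163 (0.30) was higher, and Adgre1 (0.15), Csf1r (-0.04), Mrc1 (-0.09) and Cd68 (-0.12) were not called. Of 3 endocardial markers, a list that holds Npr3 itself, Cytl1 (0.33) was higher, and the list mean differed by 0.184 between states. None was called of 5 atrial markers (1 at an unadjusted p under 0.05), 4 of Schwann cells and neurons (0), 4 of adipocytes (0) and 1 of erythroid cells (1), nor with trended robust shrinkage. The atrial list mean varied more than the ventricular one, from 8.93 to 10.93 in sleep-deprived and from 8.24 to 10.93 in sleeping hearts, a mean difference of 0.163. The adipocyte list mean ran from 4.80 to 7.97 in sleep-deprived and from 4.56 to 7.91 in sleeping hearts. Between 9 and 12 h of sleep, where Aplnr differed by -1.12, the endothelial list mean differed by -0.137 and the adipocyte list mean by 0.731, and between 9 and 12 h of sleep deprivation these were -0.043 and -0.80. At 12 h, 4 of 4 adipocyte markers had an unadjusted p under 0.05 between sleep-deprived and sleeping hearts, with a median of -1.143, and none was called in limma. The part of cell composition in these differences was not tested.

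Since runs of title numbers held different times, the differences between states were compared across them. The sign of the difference over both times of a run was the same in all 4 runs for each of the 6 receptors. For Aplnr it was -0.36, -0.62, -0.06 and -0.62 in runs 1 to 4, so that run 3 stood apart from the other runs.

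**Figure D4:**
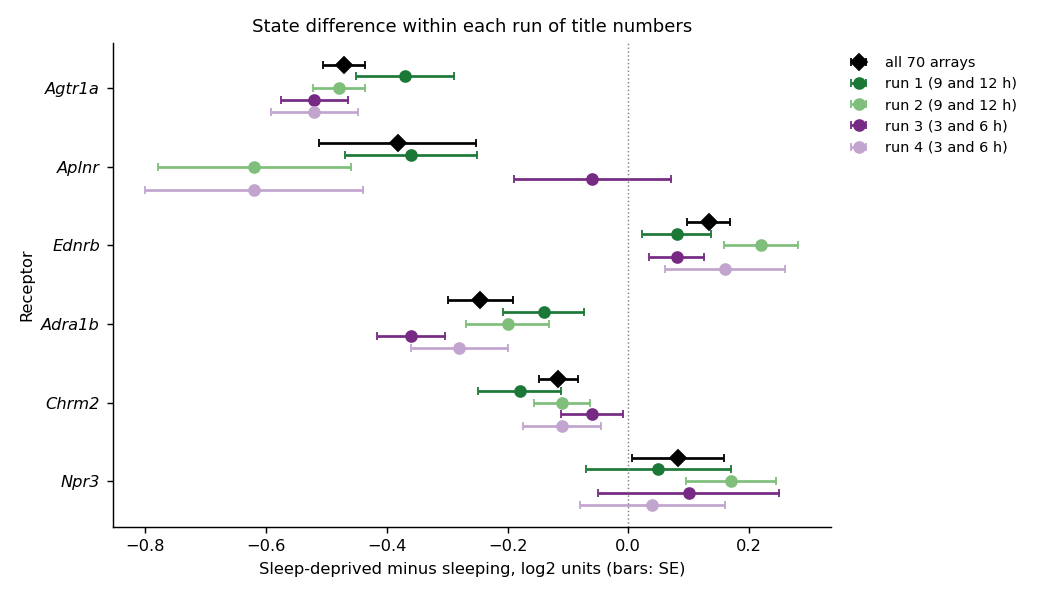
Difference between sleep-deprived and sleeping hearts for each receptor over all 70 arrays and within each run of title numbers, in log2 units with standard errors. The fit over all arrays took the state alone and the fits within runs also took time of day as a factor, so their standard errors are not alike. Agtr1a lies between -0.52 and -0.37 in every run, and Aplnr in run 3 lies near 0.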

How the data were processed

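The authors normalised the heart arrays together by robust multi-array averaging (RMA) in R with the oligo package, and the deposited values are log2 intensities per probe set. Their decimal points were missing and were restored, after 2 digits in values that start with 10 to 13 and after 1 digit otherwise, which gave 173798 of the 2844480 values 2 digits before the point; 1 ambiguous value followed its probe set's other values. Array medians then ran from 5.23 to 5.39. Arrays have no replicate numbers in the labels, so the replicate numbers used here follow the order of the title numbers within each group. In the fit of group means, p-values measure the spread between animals of a group, including any difference between its runs. In the main comparison over all times, which took the state alone, the spread also holds differences between times. For slopes it also holds departures of the group means from a line. The build behind the array annotation was not given in the sources used here, and the promoter sequences came from a separate RefSeq table (GRCm38.p6).

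Symbols came from the platform annotation: 21218 probe sets had 1 symbol, 1881 several and 12457 none. Differences were fitted with limma 3.58.1 in R 4.3.3 over all 35556 probe sets, with Benjamini-Hochberg adjustment and a false discovery rate of 1%; the study's own permutation ANOVA was not used. The comparison over all times took the state alone in its main fit, whereas the fits over both times of a run also took time of day as a factor. Pairs were tested in Python 3.11.15 with numpy 2.4.6, pandas 2.3.3 and scipy 1.17.1. The fits were tested on simulated data. Named genes were all 9 members, up to 4 genes of each list in each direction by p, direct ligands and sister receptors whatever their p, and the 3 genes most correlated with each member. Plcb3 and Plcb4 were named beside Plcb1 outside this rule. The members and lists were chosen with earlier results of these data known. Alternatives changed the scaling, filter, shrinkage, weights, run, times and arrays used. The fits within runs, the fits of slopes without the 12 h animals, the comparison of 12 h with 9 h and 14 of the 15 pairs were added after the data had been seen.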

Additional observations from a re-analysis of the deposited data

Results flagged for a closer look

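In 5 of the 54 combinations of receptor and group tested, 1 animal lay far from the others of its group, and chance marks about 1 in 20 such combinations. For Agtr1a, the lowest animal at 9 h of sleep deprivation (replicate 4) had 9.11, against 9.32 for the next, a gap of 0.495 of the group's range. The lowest sleeping animal at 9 h (replicate 1) had an Agtr1a value of 9.32, against 9.80 for the next, a gap of 0.709 of the range, and its array was among the 5 with a low correlation to the rest. For Ednrb, the highest animal at 6 h of sleep deprivation (replicate 8) had 8.82, against 8.42 for the next (0.633 of the range). For Chrm2, the lowest animal at 12 h of sleep deprivation (replicate 3), also among those 5 arrays, had 10.80, against 11.06 for the next (0.558 of the range), and the lowest sleeping animal at 12 h (replicate 5) had 11.01, against 11.27 for the next (0.507 of the range).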

How the results depend on the processing

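No paired analysis was possible because each animal gave 1 heart array in 1 group. Under the alternatives listed first, 341 values of single receptors kept their direction and side of the threshold, 17 passed it newly, 13 lost it and 4 changed sign; under those added after the data had been seen these numbers were 73, 0, 22 and 5. The 4 receptors called over all times became 1 when the 6 h animals were left out and 2 when those of 9 h were, and 1, 1, 2 and 1 within runs 1 to 4, which hold fewer animals. At single times, the 3 calls at 9 and 12 h became 0 in run 1 and 1 in run 2, and the 4 calls at 3 and 6 h became 1 in run 4. The 2 slopes called over sleep became 4 with a common intercept and 0 without the 12 h animals. When p-values were adjusted over the 2979 probe sets called between states, 1 slope was called, that of Adra1b (adjusted p = 1.24e-06, limma). Aplnr was not among those probe sets, so its slope was not tested there. Sign changes were as follows. Aplnr at 3 h became 0.003 with array weights, 0.013 without the arrays of low correlation and 0.317 in run 3. Npr3 became 0.182 at 3 h in run 3 and -0.022 at 12 h in run 2, and Ednrb -0.048 at 3 h in run 4. The slopes per h without baseline became -0.006 for Agtr1a over sleep and 0.003 over sleep deprivation, and Aplnr over sleep became 0.005 without the 12 h animals. The response of Agtr1a minus Aplnr became 0.014 without the 3 h animals. None of the values that changed sign passed the threshold, and the cause was not tested.

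Over all probe sets, 2979 calls between states became 1826 when the 6 h animals were left out and 1567 when those of 9 h were, and 632, 392, 328 and 229 in runs 1 to 4. At single times the runs gave 178 and 0 calls at 3 h (runs 3 and 4), 223 and 32 at 6 h, 80 and 367 at 9 h (runs 1 and 2) and 46 and 13 at 12 h, and the difference of 12 h from 9 h gave 41 and 162 in sleeping animals, against 473, and 37 and 0 in sleep-deprived animals, against 71. With each time fitted alone, 0.447%, 1.46%, 1.29% and 0.984% of probe sets were called at 3, 6, 9 and 12 h, against 1.59%, 2.58%, 3.31% and 3.13% together. From baseline, 3 h of sleep gave 264 calls with the run as a factor, against 57, and within the run of baseline 3 h of sleep deprivation gave 166, against 546, and 6 h of sleep 354, against 547. The slope over sleep deprivation gave 1726 calls without baseline and 2234 without the 12 h animals, against 3611, and over sleep 3071 without the 12 h animals, against 6241. The Brown-Forsythe test alone gave 0 calls of unequal spread, against 163.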
